A study of Mus musculus with 9 samples.

Results

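The transcripts of 10 transporter genes of the kidney proximal tubule were followed in the kidneys of wild-type mice: Slc34a1, Slc34a3, Slc20a1 and Slc20a2 (phosphate), Slc13a1 and Slc26a1 (sulfate), Slc13a2 and Slc13a3 (citrate and other dicarboxylates), and Slc9a3 and Slc4a4 (sodium-proton exchange and bicarbonate). They were chosen by name, as carriers of anions and exchangers of protons, from 56923 gene identifiers. All 10 were found, and all 10 passed the low-count filter that left 17036 genes for testing. The RNA-seq data hold 3 groups of 3 libraries, 9 in all. Sham mice were operated on without ischemia-reperfusion (IR), and their treatment label gives PBS (phosphate-buffered saline). AKI_PBS mice had acute kidney injury (AKI) and received PBS. AKI_PTPi_mEVs mice had AKI and received PTPi@mEVs, vesicles taken from milk that carry siRNA to PTP1B. That phosphatase, which acts on tyrosine, is the product of Ptpn1. All mice are labelled WT, and the series asks what PTP1B does in AKI. The labels give neither the time after injury nor sex, age, strain or batch, and nothing says that each library is another animal. The p-values therefore measure the spread between these samples, which may be technical. No group labelled as given empty vesicles or a control siRNA is among the samples, so the injured groups differ by the loaded vesicles as a whole.

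The proximal tubule takes back most of the phosphate, sulfate, citrate and bicarbonate that the glomerulus filters. Carriers in the brush border bring phosphate, sulfate and citrate into the cell, driven by the sodium gradient. Other carriers in the basolateral membrane pass ions on or take them up from blood. Slc34a1 encodes the main phosphate cotransporter of the brush border and Slc34a3 a related one. Parathyroid hormone and FGF23, acting with the co-receptor Klotho, lower phosphate uptake through both. Slc20a1 and Slc20a2 encode sodium-phosphate cotransporters that are found in many tissues. Slc9a3 encodes NHE3, the sodium-proton exchanger of the brush border, and Slc4a4 the basolateral sodium-bicarbonate cotransporter through which reclaimed bicarbonate leaves the cell.

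Promoter sequences are shown for 3 members that moved in opposite directions in AKI_PBS: Slc34a1 and Slc26a1, which fell, and Slc20a1, which rose. Each sequence holds the 250 bases before a RefSeq start in GRCm38.p6, 5′ to 3′ on the strand of the gene. Capitals mark matches, on either strand, to the letters TGANTCA (AP-1), TGACG (core of the cyclic AMP response element) and CACGTG (E-box). These letters were chosen after the values were seen. None of the marked matches overlap each other. The regions are chr13:55399398-55399647 on the plus strand for Slc34a1, chr2:129198523-129198772 on the plus strand for Slc20a1 and chr5:108675366-108675615 on the minus strand for Slc26a1. In GENCODE M21 the Slc34a1 gene starts at 55398187, so its whole window lies within the annotated gene. The Slc26a1 gene starts at 108675569, so most of its window lies within the gene too. The Slc20a1 gene starts at 129198764, near the end of its window.
Slc34a1: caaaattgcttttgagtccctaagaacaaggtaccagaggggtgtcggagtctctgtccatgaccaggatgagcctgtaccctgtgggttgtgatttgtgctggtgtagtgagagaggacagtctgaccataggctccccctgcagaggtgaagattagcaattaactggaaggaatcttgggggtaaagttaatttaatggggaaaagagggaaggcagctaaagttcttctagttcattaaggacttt
Slc20a1: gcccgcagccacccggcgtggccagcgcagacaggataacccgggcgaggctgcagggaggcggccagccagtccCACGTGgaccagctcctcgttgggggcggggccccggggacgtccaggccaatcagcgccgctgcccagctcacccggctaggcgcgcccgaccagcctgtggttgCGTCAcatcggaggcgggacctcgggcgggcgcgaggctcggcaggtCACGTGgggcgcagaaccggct
Slc26a1: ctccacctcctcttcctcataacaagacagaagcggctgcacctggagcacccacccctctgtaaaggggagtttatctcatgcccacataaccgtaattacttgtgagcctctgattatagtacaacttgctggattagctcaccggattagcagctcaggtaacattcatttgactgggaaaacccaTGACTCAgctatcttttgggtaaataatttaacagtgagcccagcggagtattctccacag
The Slc20a1 window holds CACGTG 175 to 170 and 22 to 17 bases before the start, letters found in 6.02% of all 32851 promoter windows of this length, and TGACG on the minus strand 69 to 65 bases before it (17.8% of windows). The Slc26a1 window holds TGACTCA 61 to 55 bases before the start, and TGANTCA is found in 6.75% of windows. The letters CAAAGTCCA (HNF4) were in 0.384% of windows and in none of those of the members. Windows were at hand for 8 of the 10 members. The same letters stand before members that did not rise in AKI_PBS: CACGTG and TGACG in the window of Slc13a3, and CACGTG in that of Slc9a3 and in a second window of Slc26a1. A second window of Slc20a1 holds TGACG in 2 places. The Slc34a1 window holds none of the marked letters, which says only that they are not in these bases. A match is only a run of letters, and the libraries measure no binding.

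Some facts of the libraries bear on what follows. Totals lay between 9467851 and 11389479 counts. Ptpn1 itself was at a log2 fold change of 0.71 ± 0.15 in AKI_PBS against sham and of -0.53 ± 0.15 in AKI_PTPi_mEVs against AKI_PBS (edgeR adjusted p = 0.0012 and 0.0086). A value after ± is a standard error on the log2 scale, except where SD is written, and adjusted p-values are from edgeR's quasi-likelihood test with Benjamini-Hochberg adjustment over all 17036 genes, with a call at 0.05. AKI_PBS replicate 3 stood apart from its group. The chi-square per degree of freedom between its counts and those of replicates 1 and 2 was 35.1 and 32.4, against 13.7 between replicates 1 and 2. The proximal tubule genes Lrp2, Cubn and Slc5a2 were at 63.8 CPM or more in every library. Of 6 adrenal genes, Cyp11b1 and Cyp11b2 had 0 counts in all libraries. Cyp21a1 had 2 counts in sham, 4 in AKI_PBS and 5 in AKI_PTPi_mEVs. The 6 summed to 15.3 to 18.6 CPM in sham, 29.2 to 38.9 CPM in AKI_PBS and 10.1 to 14.7 CPM in AKI_PTPi_mEVs. Among them Star and Akr1b7 were higher in AKI_PBS than in sham (0.83 ± 0.26 and 1.16 ± 0.25). Both were lower in AKI_PTPi_mEVs than in AKI_PBS (-1.05 ± 0.26 and -1.78 ± 0.26).

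In sham kidneys the members spanned a wide range of levels. Levels are compared between genes as CPM, counts brought to a common scale by library total and TMM factor, per kilobase of exon in the GENCODE M21 annotation. Slc34a1 led with 881 ± 118 CPM per kilobase (SD, n = 3). Slc13a3 followed with 124 ± 24.9, Slc4a4 with 71.4 ± 1.69, Slc26a1 with 45.6 ± 5.53 and Slc13a1 with 44.6 ± 2.30 CPM per kilobase (SD). Below them lay Slc13a2 with 37.1 ± 0.830, Slc34a3 with 31.9 ± 3.74, Slc9a3 with 20.6 ± 1.24, Slc20a2 with 8.11 ± 1.32 and Slc20a1 with 8.03 ± 0.368 CPM per kilobase (SD). The ranges of Slc26a1 and Slc13a1 overlapped, as did those of Slc20a2 and Slc20a1, and the other neighbours in this order did not overlap. In AKI_PBS Slc34a1 still led, with 351 ± 85.9 CPM per kilobase (SD), but Slc20a1 stood at position 3 with 43.5 ± 13.8 and Slc13a2 last with 5.80 ± 2.94. There the neighbours overlapped except at Slc34a1 above Slc4a4 and at Slc34a3 above Slc26a1. In AKI_PTPi_mEVs Slc13a1 stood at position 3 with 142 ± 45.8 CPM per kilobase (SD), behind Slc34a1 (595 ± 169) and Slc13a3 (154 ± 28.4), and its range overlapped that of Slc13a3.

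**Figure D1:**
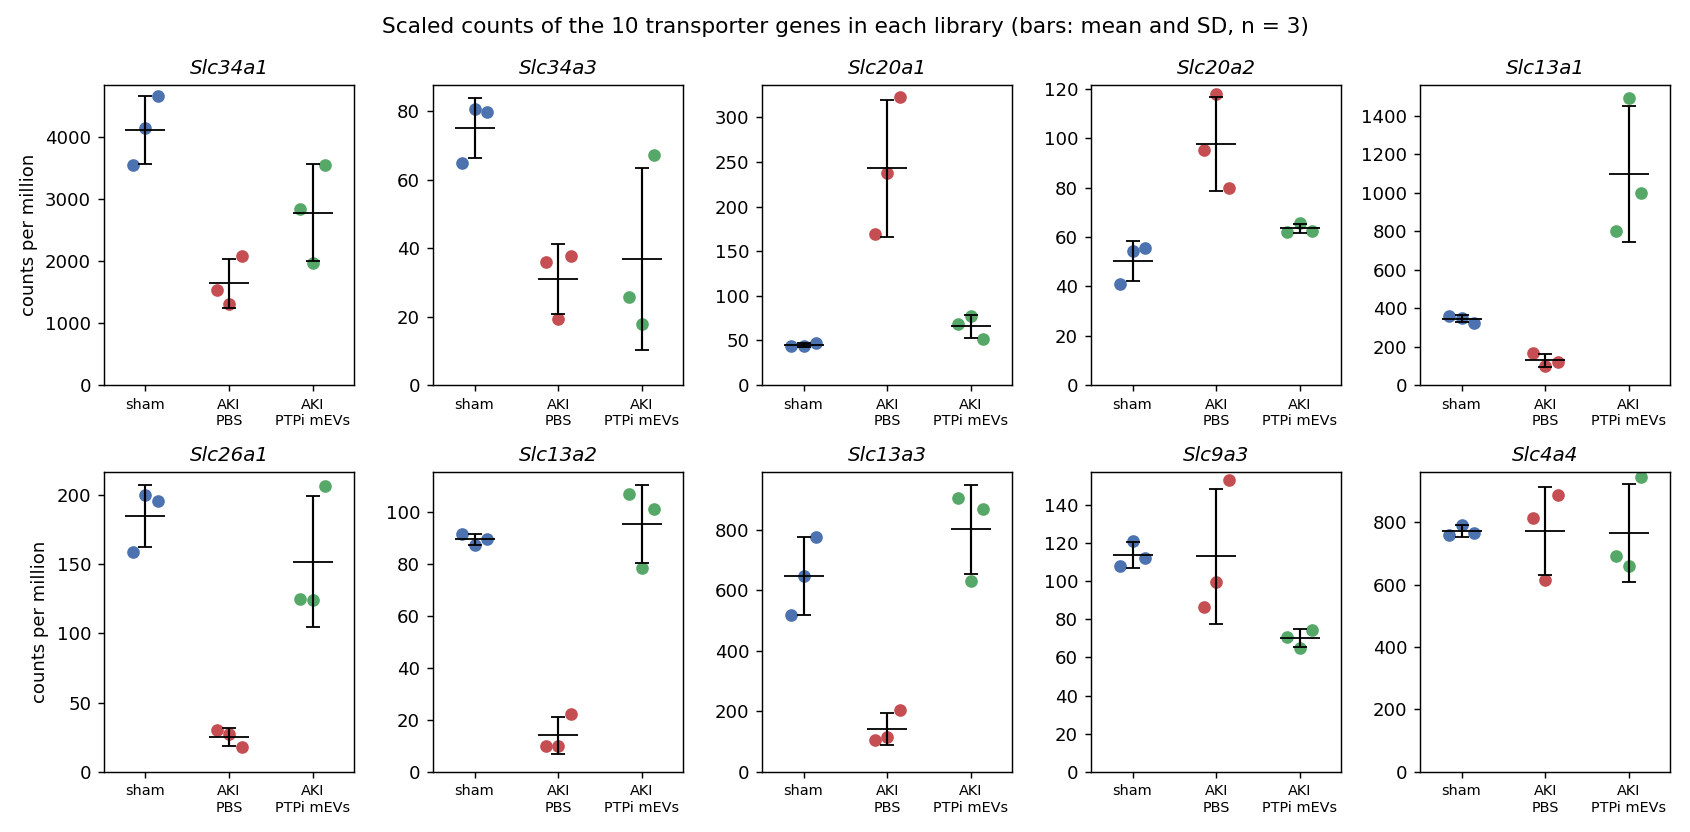
Scaled counts (CPM, linear axes from 0) of each of the 10 genes in the 9 libraries, as points by group, with the mean and SD of 3 libraries as black bars. The sulfate and dicarboxylate carriers Slc26a1, Slc13a2 and Slc13a3 are low in AKI_PBS alone, Slc20a1 is high there, and Slc13a1 is highest in AKI_PTPi_mEVs, at 803 to 1490 CPM.

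Injury with PBS was compared with sham. Carriers of phosphate in the brush border, of sulfate and of dicarboxylates were lower in injured kidneys, the SLC20 phosphate carriers were higher, and Slc9a3 and Slc4a4 did not pass the test. In counts, 8 of the 10 members were called, 6 lower and 2 higher. Of all genes tested, 55.7% were called in this comparison, 27.9% lower and 27.8% higher. The members' median log2 fold change was -1.30, against 0.03 over all genes tested. The groups did not overlap for 8 members, against 62.1% of all genes. In bulk tissue, fewer cells of a type and less RNA per cell cannot be told apart. Beside the members, the 28 proximal tubule marker genes, which hold none of the members, had 21 lower and 2 higher, with a median of -1.28. Their summed level was 10150 to 16690 CPM in AKI_PBS and 23150 to 28560 CPM in sham. The summed level of 15 tubular injury genes was 11920 to 16290 CPM in AKI_PBS and 2329 to 2722 CPM in sham. Nuclear RNAs, Malat1 and Neat1 among them, summed to 6730 to 10330 CPM in AKI_PBS and to 3310 to 3674 CPM in sham. Of the 4 measured, 2 were higher, Malat1 (1.09 ± 0.15) and Neat1 (1.57 ± 0.23), while Kcnq1ot1 and Meg3 did not pass. Neutrophil genes summed to 0.610 to 0.980 CPM in sham and to 25.1 to 46.9 CPM in AKI_PBS, and the defining genes S100a8 and Retnlg had 0 counts in sham. At these sham levels the low-count filter rests on AKI_PBS, so no count of called neutrophil genes is given. The part of these lists in the members' values was not tested.

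The brush border phosphate carriers fell. The sham libraries held 3555, 4142 and 4658 CPM of Slc34a1, and the AKI_PBS libraries 1532, 1303 and 2084 CPM. Every AKI_PBS library lay below every sham library. Slc34a1 fell by 1.33 ± 0.23 on the log2 scale (edgeR adjusted p = 0.00032), which is 2.51-fold lower. Slc34a3, its less abundant relative, was at 65.1, 80.7 and 80.0 CPM in sham and at 36.1, 19.2 and 37.6 CPM in AKI_PBS. Its fall by 1.28 ± 0.41 (edgeR adjusted p = 0.021) has a wide interval, from -2.19 to -0.37. The call for Slc34a3 was lost without sham replicate 2 (-1.24), sham replicate 3 (-1.24) or AKI_PBS replicate 2 (-1.03), and without a low-count filter (-1.31).

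The SLC20 carriers went the other way. Slc20a1 was at 43.9, 43.3 and 47.1 CPM in sham and at 169, 238 and 322 CPM in AKI_PBS. Its sham libraries were close together and its AKI_PBS libraries spread widely, with AKI_PBS replicate 3 highest. Slc20a1 rose 5.42-fold (log2 difference 2.44 ± 0.22, edgeR adjusted p = 2.46e-06), and by 2.18 on the log2 scale without that library. Slc20a2 was at 41.0, 54.5 and 55.7 CPM in sham and at 95.4, 118 and 79.9 CPM in AKI_PBS. The groups did not overlap, and Slc20a2 rose 1.94-fold (log2 difference 0.96 ± 0.16, edgeR adjusted p = 0.00033). Both genes share exonic bases with genes on the opposite strand: Slc20a1 shares 280 bases with Gm4430 and 452 with 9830144P21Rik, and Slc20a2 shares 95 with Smim19. Slc34a1 likewise shares 545 exonic bases with Pfn3 on the opposite strand, and Pfn3 had 0 counts in all libraries. Whether the counting used strand is not given, so reads from these stretches could not be told apart.

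Per kilobase, the make-up of the phosphate carrier transcripts shifted with these changes. Slc20a1 and Slc20a2 together made up 1.80%, 1.77% and 1.66% of the summed level of the 4 phosphate carriers in sham. In AKI_PBS they made up 11.7%, 17.7% and 13.3%. In AKI_PTPi_mEVs they made up 3.47%, 5.39% and 2.41%. The 3 groups do not overlap in this share, and Slc34a1 remained the main transcript in every library, with at least 80.0%.

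**Figure D2:**
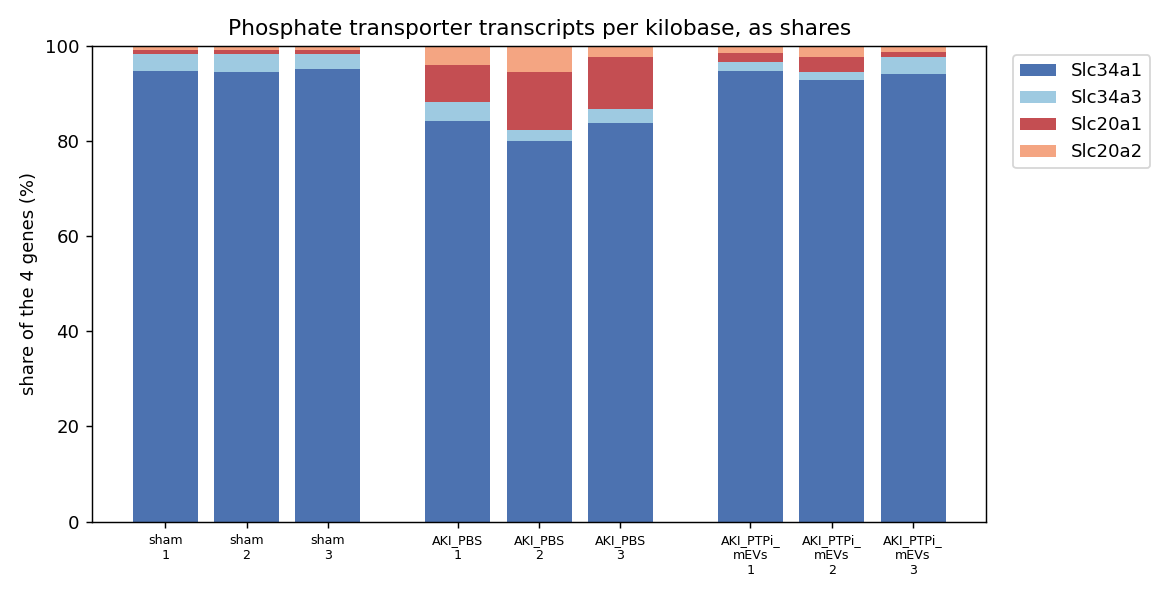
Stacked bars give, for each of the 9 libraries, the share (%) of each of 4 phosphate carrier genes in their summed CPM per kilobase. Slc34a1 takes most of every bar, and the SLC20 genes take 11.7% to 17.7% in AKI_PBS against 1.66% to 1.80% in sham.

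Sulfate carriers fell on both sides of the cell. Slc13a1, the sodium-sulfate cotransporter of the brush border, was at 359, 351 and 325 CPM in sham and at 167, 98.4 and 122 CPM in AKI_PBS. It fell by 1.42 ± 0.23 on the log2 scale (edgeR adjusted p = 0.00022), with no overlap between the groups. Slc26a1, the basolateral sulfate-anion exchanger, was at 159, 200.1 and 195 CPM in sham and at 29.8, 27.4 and 17.9 CPM in AKI_PBS. It fell by 2.88 ± 0.24 on the log2 scale, 7.38-fold lower and the deepest fall among the members (edgeR adjusted p = 1.44e-06). Slc26a1 shares 141 exonic bases with Idua on the opposite strand.

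Both dicarboxylate carriers fell. Slc13a2, which takes up citrate and other dicarboxylates from the tubular fluid, was at 91.4, 87.4 and 89.6 CPM in sham and at 9.94, 9.86 and 22.2 CPM in AKI_PBS. AKI_PBS replicate 3 held the most Slc13a2 of its group but still lay below every sham library. The fall was by 2.68 ± 0.27 on the log2 scale (edgeR adjusted p = 5.54e-06), and by 3.17 without that library. Slc13a2 shares 632 exonic bases with its antisense gene Slc13a2os, which had 371 counts in all 9 libraries. Slc13a3, the basolateral carrier that brings dicarboxylates in from blood, was at 518, 647 and 778 CPM in sham and at 106, 114 and 204 CPM in AKI_PBS. It fell by 2.19 ± 0.25 on the log2 scale (edgeR adjusted p = 1.73e-05), again with no overlap.

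The carriers of bicarbonate reclamation did not pass the test. Slc4a4 was at 759, 793 and 765 CPM in sham and at 815, 615 and 888 CPM in AKI_PBS. The groups overlapped, and the log2 fold change of 0.00 ± 0.17 had an interval from -0.37 to 0.38 (edgeR adjusted p = 0.997). Slc9a3 was at 108, 121 and 112 CPM in sham and at 86.4, 99.8 and 153 CPM in AKI_PBS. AKI_PBS replicate 3 lay above all sham libraries and the other AKI_PBS libraries below them. The log2 fold change of -0.01 ± 0.18 had an interval from -0.40 to 0.39 (edgeR adjusted p = 0.98), and it was -0.29 without AKI_PBS replicate 3 (edgeR adjusted p = 0.075). A change within these intervals cannot be told apart from none with 3 libraries a group.

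**Figure D3:**
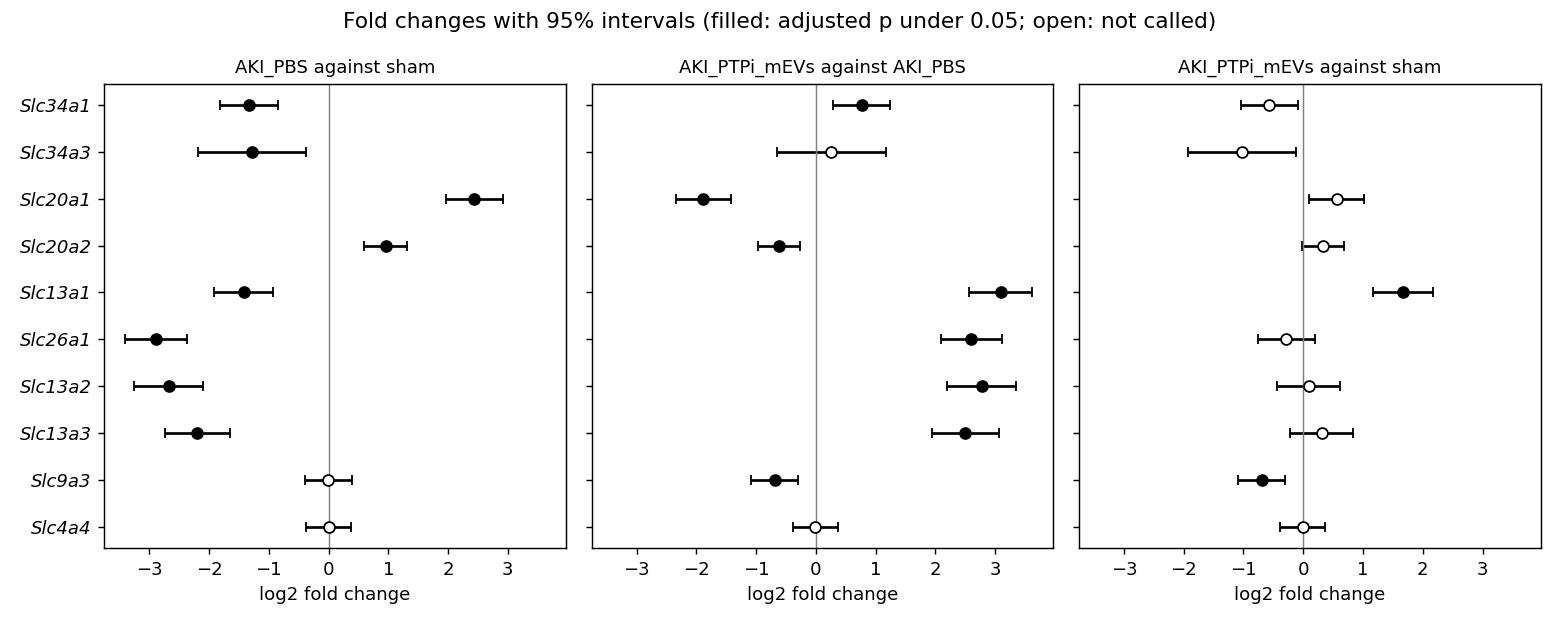
Log2 fold changes of the 10 genes in the 3 comparisons, with 95% intervals from edgeR's quasi-likelihood fit, filled where the adjusted p was under 0.05. In AKI_PBS against sham 6 genes lie below 0 and 2 above, and in AKI_PTPi_mEVs against sham the called genes are Slc13a1 at 1.67 and Slc9a3 at -0.70.

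Injured kidneys given the loaded vesicles were compared with those given PBS. The sulfate and dicarboxylate carriers and Slc34a1 were higher, and Slc20a1, Slc20a2 and Slc9a3 were lower. Of the 10 members, 8 were called, 5 higher and 3 lower. Of all genes 51.1% were called in this comparison, 25.4% higher and 25.8% lower. Scaled by library totals alone, 42.7% of the calls were higher, against 49.6% with TMM factors. The members' median log2 fold change was 0.51, against -0.03 over all genes. The groups did not overlap for 7 members, against 57.9% of all genes. This comparison shares its AKI_PBS libraries with the one above, so opposite signs in them are not separate results. Beside the members, the proximal tubule markers had 18 of 28 higher and 1 lower, with a median of 1.16 and a summed level of 18400 to 24770 CPM in AKI_PTPi_mEVs. Neutrophil genes summed to 2.11 to 2.42 CPM in AKI_PTPi_mEVs. Nuclear RNAs summed to 3358 to 3612 CPM, against 6730 to 10330 CPM in AKI_PBS, with Malat1 at -1.12 ± 0.15 and Neat1 at -1.55 ± 0.23. Kcnq1ot1 and Meg3, in the same list, did not pass. Of the tubular injury genes 10 of 15 were lower and 1 higher, of the podocyte genes 4 of 6 were lower, and of the red blood cell genes 5 of 6 were lower and 1 higher. Mitochondrially encoded genes summed to 9686 to 11520 CPM in AKI_PTPi_mEVs and to 14630 to 17210 CPM in AKI_PBS. The part of these lists in the members' values was not tested.

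Slc13a1 was higher than in either other group. The AKI_PTPi_mEVs libraries held 803, 1490 and 1000 CPM, against 98.4 to 167 CPM in AKI_PBS. Slc13a1 was 8.52-fold higher than in AKI_PBS (log2 difference 3.09 ± 0.24, edgeR adjusted p = 2.01e-06) and 3.18-fold higher than in sham (1.67 ± 0.23, edgeR adjusted p = 0.00094). Every AKI_PTPi_mEVs library lay above every sham library. The rise over sham was between 1.37 and 1.86 on the log2 scale with each library left out in turn, and it passed each time. The other sulfate carrier, Slc26a1, was at 125, 124 and 206 CPM and was 6.06-fold higher than in AKI_PBS (2.60 ± 0.24, edgeR adjusted p = 4.64e-06). Against sham it did not pass (-0.29 ± 0.22, edgeR adjusted p = 0.43), with an interval from -0.76 to 0.19.

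Slc13a2 was at 107, 78.5 and 101 CPM in AKI_PTPi_mEVs, 6.82-fold higher than in AKI_PBS (2.77 ± 0.27, edgeR adjusted p = 7.27e-06). Its libraries lay on both sides of the sham libraries, and against sham the log2 fold change was 0.09 ± 0.24 (edgeR adjusted p = 0.84). Slc13a3 was at 904, 632 and 868.4 CPM, 5.66-fold higher than in AKI_PBS (2.5 ± 0.26, edgeR adjusted p = 1.07e-05). Against sham it was at 0.31 ± 0.24 (edgeR adjusted p = 0.44). The intervals of these differences from sham run from -0.43 to 0.62 for Slc13a2 and from -0.22 to 0.83 for Slc13a3.

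Of the brush border phosphate carriers, Slc34a1 was called and Slc34a3 was not. Slc34a1 was at 2837, 1968 and 3543 CPM in AKI_PTPi_mEVs. The lowest of these lay below the highest AKI_PBS library, and all lay below the sham libraries. Slc34a1 was 1.70-fold higher than in AKI_PBS (0.76 ± 0.22, edgeR adjusted p = 0.013), a call lost without AKI_PBS replicate 2 (0.62) or AKI_PTPi_mEVs replicate 3 (0.57). Against sham it was at -0.57 ± 0.22, which did not pass (edgeR adjusted p = 0.11) but did without a low-count filter (-0.56). Slc34a3 was at 25.8, 17.8 and 67.4 CPM. AKI_PTPi_mEVs replicate 3 lay within the sham range and the other 2 libraries within or below that of AKI_PBS. Neither difference passed: it was 0.25 ± 0.41 against AKI_PBS (edgeR adjusted p = 0.63) and -1.03 ± 0.41 against sham (edgeR adjusted p = 0.13). Without AKI_PTPi_mEVs replicate 3 these values were -0.49 and -1.78, and the latter then passed (edgeR adjusted p = 0.0031).

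The SLC20 carriers were lower with the vesicles. Slc20a1 was at 68.3, 77.3 and 52.1 CPM, below every AKI_PBS library and above every sham library. It was 3.69-fold lower than in AKI_PBS (log2 difference -1.88 ± 0.21, edgeR adjusted p = 2.15e-05). Against sham, 0.56 ± 0.21 did not pass (edgeR adjusted p = 0.10) but did with only the sham and AKI_PTPi_mEVs libraries in the fit (0.53), without a low-count filter (0.57), and without AKI_PBS replicate 1 or 3 (0.56 each). Slc20a2 was at 62.1, 65.7 and 62.5 CPM. It was 1.54-fold lower than in AKI_PBS (-0.62 ± 0.16, edgeR adjusted p = 0.0065), and against sham it was at 0.33 ± 0.16 (edgeR adjusted p = 0.20).

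Of the carriers of bicarbonate reclamation, Slc9a3 was called here and Slc4a4 was not, and the ratio between them did not pass its own test. Slc9a3 was at 70.6, 65.1 and 74.5 CPM in AKI_PTPi_mEVs, below every library of both other groups. It was 1.61-fold lower than in AKI_PBS (-0.69 ± 0.18, edgeR adjusted p = 0.0074), and the difference was -0.41 without AKI_PBS replicate 3. It was 1.62-fold lower than in sham (-0.70 ± 0.18, edgeR adjusted p = 0.026). That call was lost when any of the 6 sham and AKI_PTPi_mEVs libraries was left out, with values from -0.65 to -0.74 and edgeR adjusted p = 0.052 to 0.10. Slc4a4 was at 694, 660 and 946 CPM, overlapping both other groups, and was at -0.01 ± 0.17 against each (edgeR adjusted p = 0.96 against AKI_PBS and 0.98 against sham). Its intervals ran from -0.39 to 0.36 in both comparisons.

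Against sham, AKI_PTPi_mEVs differed in 2 of the 10 members, Slc13a1 higher and Slc9a3 lower. Of all genes 13.2% were called in this comparison, 7.43% higher and 5.79% lower. With single libraries left out, 1 to 3 members and 878 to 3395 genes were called, against 2252 genes with all libraries. The fewest genes were called without AKI_PTPi_mEVs replicate 2 and the most without AKI_PBS replicate 3. The count also fell by over 1.5 times without sham replicate 1 (1184), sham replicate 2 (938) or AKI_PTPi_mEVs replicate 1 (1487). The members' median log2 fold change was 0.04, against -0.01 over all genes. The groups did not overlap for 5 members, against 39.2% of all genes. Proximal tubule markers had 1 of 28 higher and 3 lower. By segment, 5 of 10 markers of S3 and 0 of 10 of S1 and S2 were lower, with 0 higher in each. Low values were not particular to S3: 4 of 8 thick ascending limb markers and 3 of 6 distal convoluted tubule markers were lower. Of 15 tubular injury genes 14 were higher. Of 12 mitochondrially encoded genes 5 were lower, with sums of 9686 to 11520 CPM against 13010 to 17220 CPM in sham, and of 6 red blood cell genes 5 were lower. The part of these lists in the members' values was not tested.

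Ratios between members show how far carriers of the same ion or role moved apart, and they are free of library scaling. The 7 ratios were tested across the 3 groups by exact permutation over all assignments of the 9 libraries to the groups, with Benjamini-Hochberg adjustment over the 7. The smallest p this test can give is 0.0036. The log2 ratio of Slc20a1 to Slc34a1 counts was -6.51 ± 0.15 in sham, -2.78 ± 0.37 in AKI_PBS and -5.38 ± 0.71 in AKI_PTPi_mEVs (SD, n = 3; exact p = 0.0036, adjusted p = 0.025). The 3 groups did not overlap in it. In both injured groups every Slc20a1 value lay above and every Slc34a1 value below those of sham. The separation of this ratio from sham follows from those values and is not a further result. The log2 ratio of Slc20a1 to Slc20a2 was -0.16 ± 0.23, 1.28 ± 0.64 and 0.04 ± 0.26 in the same order (SD, n = 3; exact p = 0.011, adjusted p = 0.038). It was highest in AKI_PBS replicate 3, at 2.01, and the other AKI_PBS libraries lay at 0.82 and 1.01.

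The ratio between the sulfate carriers lay higher in both injured groups than in sham, though the test was across the 3 groups together and not of each against sham. The log2 ratio of Slc13a1 to Slc26a1 was 0.91 ± 0.24 in sham, 2.36 ± 0.47 in AKI_PBS and 2.85 ± 0.67 in AKI_PTPi_mEVs (SD, n = 3; exact p = 0.018, adjusted p = 0.042). All injured libraries lay above all sham libraries, and the injured groups overlapped. The log2 ratio of Slc13a2 to Slc13a3 was -2.84 ± 0.31, -3.38 ± 0.17 and -3.06 ± 0.05 in the same order (SD, n = 3; exact p = 0.025, adjusted p = 0.044). For 3 ratios the test was not passed: Slc34a1 to Slc34a3 (exact p = 0.20), Slc13a1 to Slc13a3 (exact p = 0.12) and Slc9a3 to Slc4a4 (exact p = 0.057), with adjusted p = 0.20, 0.14 and 0.080. All 4 ratios that passed lost their call when some single libraries were left out. For Slc20a1 to Slc34a1 these were sham replicates 1 and 2, each at adjusted p = 0.050. For Slc20a1 to Slc20a2 they were each sham library and AKI_PTPi_mEVs replicates 1 and 2, with adjusted p up to 0.075. For Slc13a1 to Slc26a1 they were each sham library, AKI_PBS replicate 2 and AKI_PTPi_mEVs replicates 1 and 2, with adjusted p up to 0.075. For Slc13a2 to Slc13a3 they were all but sham replicate 3 and AKI_PBS replicate 3, with adjusted p up to 0.13. The ratio of Slc9a3 to Slc4a4 passed without AKI_PBS replicate 1 (adjusted p = 0.013).

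**Figure D4:**
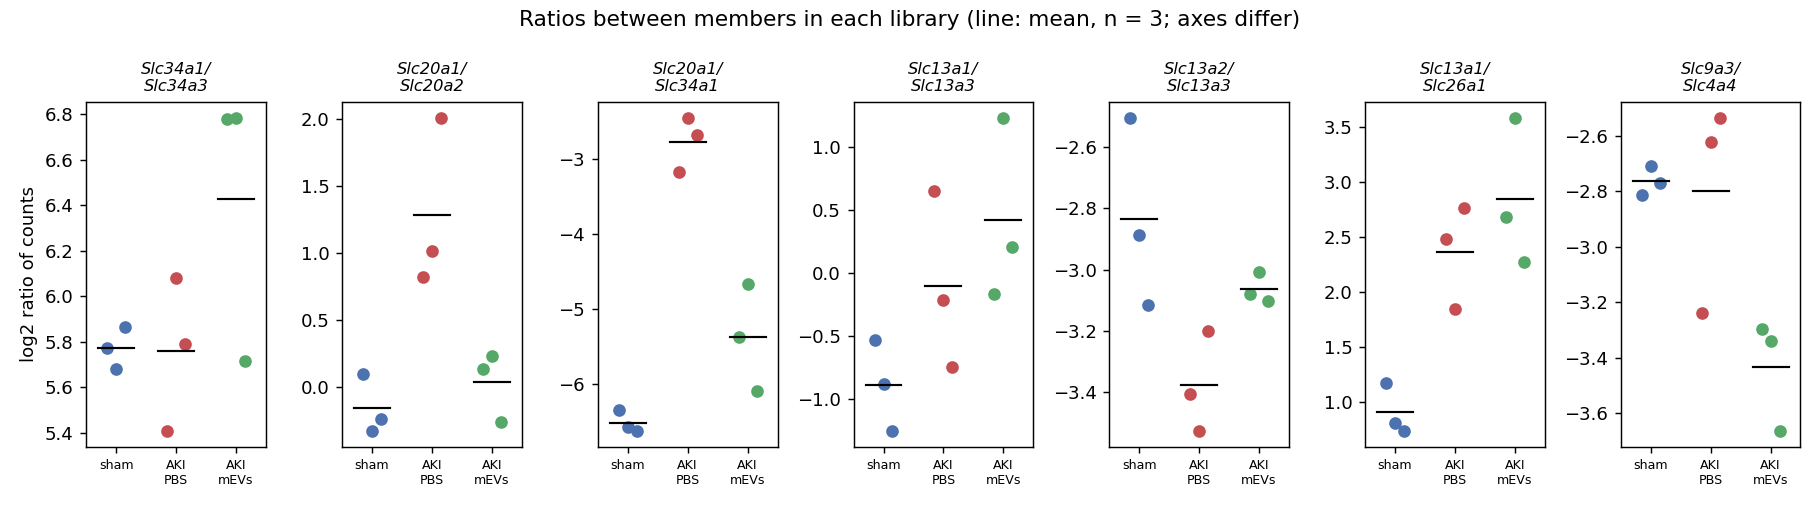
Log2 ratios of counts between 7 pairs of members in each library, with points by group and a line at the mean of 3 libraries, on axes that differ between panels. The ratio of Slc20a1 to Slc34a1 separates the 3 groups, at -6.63 to -6.34 in sham and -3.18 to -2.45 in AKI_PBS.

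Genes whose profile lay closest to a member were found by the root mean square difference of log2 CPM over the 9 libraries, each gene centred on its sham mean, among 8500 genes whose mean log2 CPM reached 4. Closest to Slc34a1 were Slc22a18 (0.10), Susd2 (0.11), Abhd18 (0.13), Tmem64 (0.15) and Lypla1 (0.15). Closest to Slc20a1 were Mapk6 (0.09), Tmcc3 (0.17), Rhbdf2 (0.20), Slc35e4 (0.23) and Pmepa1 (0.25). Closest to Slc13a3 were Dglucy (0.21), Pdzk1 (0.22), Slc16a14 (0.23), Scrn2 (0.28) and Pter (0.28), and the nearest member was Slc13a2 at 0.38. Pdzk1 encodes a scaffold protein of the brush border that binds several transporters, Slc34a1 among them. Closest to Slc26a1 were Fut9 (0.21), Chac2 (0.24), Akr1b3 (0.25), Stxbp4 (0.26) and Aqp11 (0.27), and the nearest member was again Slc13a2, at 0.60. The distance between Slc34a1 and Slc34a3 was 0.50. All genes share the same libraries, so these distances are a description.

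Other genes of the same pathways are counted beside the 55.7% and 51.1% of all genes that were called in AKI_PBS against sham and in AKI_PTPi_mEVs against AKI_PBS. Those of phosphate handling were taken from 2 lists. Of 8 relatives and other phosphate carriers, 2 were higher and 4 lower in AKI_PBS against sham, and 5 were higher and 2 lower in AKI_PTPi_mEVs against AKI_PBS (medians -0.12 and 0.77). Slc17a3 was at -2.20 ± 0.26 and Slc17a1 at -0.99 ± 0.18 in the first comparison, both anion carriers of the SLC17 family. Slc17a4 of the same family, chosen after its values were seen, went the other way, at 0.82 ± 0.26 there. In the second comparison Slc17a4 was at -1.09 ± 0.26. Slc37a4, the glucose-6-phosphate carrier of the endoplasmic reticulum, was at -1.59 ± 0.23. Slc17a2 had 26 counts over the sham libraries, 94 over those of AKI_PBS and 10 over those of AKI_PTPi_mEVs. AKI_PBS alone carried it past the filter on low counts. Its calls, which the list's counts include, are therefore not read as a result. Of 24 measured genes of phosphate control, 5 were higher and 12 lower in AKI_PBS (median -0.54), and 11 higher and 5 lower in AKI_PTPi_mEVs against AKI_PBS (median 0.42). Pth1r, the receptor of parathyroid hormone, fell by 1.33 ± 0.16 on the log2 scale, and was at 1.53 ± 0.16 in the second comparison. The scaffold genes Pdzk1 (-2.22 ± 0.22) and Pdzd3 (-2.01 ± 0.18) fell in AKI_PBS and were at 2.21 ± 0.22 and 2.15 ± 0.18 in the second comparison. Ezr, which encodes the membrane linker ezrin, rose by 1.40 ± 0.13 in AKI_PBS and stayed higher than sham in AKI_PTPi_mEVs (0.51 ± 0.13, edgeR adjusted p = 0.022).

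Genes of sulfate handling were mostly lower in AKI_PBS, 16 of 22 with 2 higher (median -0.98). In AKI_PTPi_mEVs against AKI_PBS 14 were higher and 4 lower (median 0.72). Slc26a6, an anion exchanger of the brush border, was at -1.93 ± 0.24 in the first comparison and at 2.21 ± 0.25 in the second. Tst, which encodes the sulfur transferase rhodanese, was at -1.63 ± 0.15 and 1.28 ± 0.15. Cbs, the first enzyme of transsulfuration, was at -2.34 ± 0.29 and 0.95 ± 0.29, and was still lower than sham in AKI_PTPi_mEVs (-1.40 ± 0.28, edgeR adjusted p = 0.0086). Sult1e1, the oestrogen sulfotransferase, had 2 counts over the sham libraries, 628 over those of AKI_PBS and 8 over those of AKI_PTPi_mEVs. AKI_PBS alone carried Sult1e1 through the filter on low counts. Its calls, which the counts of this list include, are therefore not read as a result.

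Of 24 genes of citrate and dicarboxylate handling, 18 were lower in AKI_PBS and the others did not pass (median -0.80). In AKI_PTPi_mEVs against AKI_PBS 15 were higher and the others did not pass (median 0.65). Sucnr1, the receptor of succinate, fell by 3.69 ± 0.23 on the log2 scale in AKI_PBS and was at 3.51 ± 0.23 in the second comparison. Oxgr1, the receptor of oxoglutarate, was at -1.50 ± 0.20 and 1.04 ± 0.20, and Slc25a11, the mitochondrial oxoglutarate carrier, at -1.26 ± 0.15 and 1.25 ± 0.15. Slco4c1, an organic anion carrier, fell by 3.93 ± 0.29 and was still lower than sham in AKI_PTPi_mEVs (-1.93 ± 0.25, edgeR adjusted p = 0.00069).

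Of 28 measured genes of bicarbonate and proton handling, 4 were higher and 12 lower in AKI_PBS (median -0.22), and 10 higher and 5 lower in AKI_PTPi_mEVs against AKI_PBS (median 0.24). The shares called in this list are near those of all genes, 55.7% and 51.1%, and are no result about the list. Aqp1, the water channel of the proximal tubule, was at -2.77 ± 0.24 and 2.61 ± 0.24. Car12, a membrane carbonic anhydrase, was at -1.73 ± 0.19 and 1.48 ± 0.19. Slc4a1, the chloride-bicarbonate exchanger of intercalated cells and red blood cells, was at -3.49 ± 0.26 and 2.71 ± 0.25. Most other markers of these cells did not follow it. Of 8 intercalated cell genes, Slc4a1 among them, 2 were lower and 0 higher in the first comparison, and 3 lower and 1 higher in the second. Of 6 measured red blood cell genes, also with Slc4a1, 1 was lower and 1 higher in the first, and 5 lower and 1 higher in the second. In both lists the 1 higher gene of the second comparison was Slc4a1. Slc9a8, a relative of Slc9a3, fell by 1.68 ± 0.18 in AKI_PBS and was also lower than sham in AKI_PTPi_mEVs (-1.51 ± 0.18, edgeR adjusted p = 0.00045). Between the injured groups Slc9a8 was at 0.17 ± 0.18, which did not pass (edgeR adjusted p = 0.44).

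**Figure D5:**
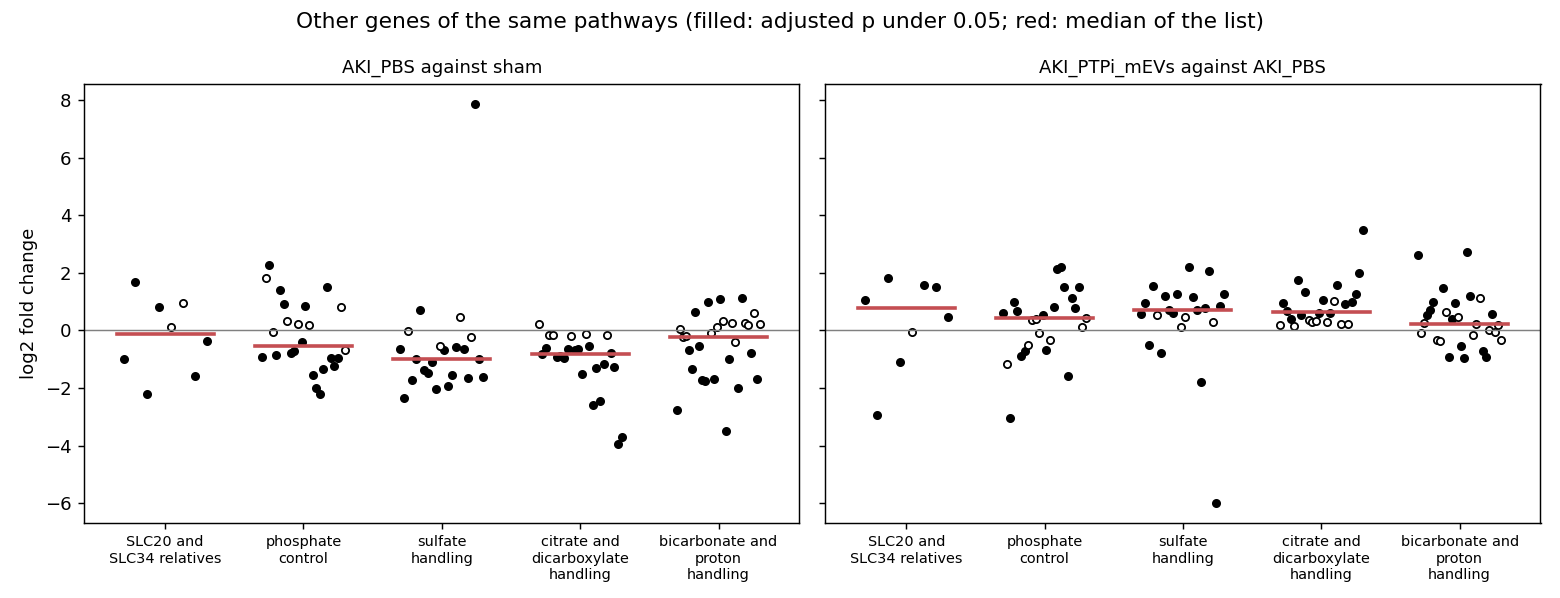
Log2 fold changes of the other genes of 5 transport lists in AKI_PBS against sham and in AKI_PTPi_mEVs against AKI_PBS, filled where edgeR's adjusted p was under 0.05, with a red line at the median of the list. The medians run from -0.98 to -0.12 in the first comparison and from 0.24 to 0.77 in the second.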

How the data were processed

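RNA of mouse kidneys was sequenced in 9 libraries. The authors deposited counts of reads per gene, in whole numbers; STAR and HTSeq made them, per the submitters' processing notes, and 100 ng of total RNA entered a Tn5-based library kit, per the labels' protocols. Those notes name GRCh38.p14, a human build, while each of the 56923 identifiers is a mouse Ensembl one, and the build used was not settled. For versions, strand and filters the sources used here give nothing.

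Columns were matched to samples by name, with the group taken from the title or treatment label, and every column was mapped. Of the identifiers, 52073 had a symbol. Library totals (9467851 to 11389479 counts) limit the precision of low genes. In R 4.3.3, edgeR 4.0.16 (filterByExpr, TMM factors, robust glmQLFit with a mean per group over all 9 libraries) compared the groups with glmQLFTest. A trial of the fit on simulated data had far fewer changed genes than were called here, so it does not check the scaling or error rates. limma 3.58.1 and DESeq2 1.42.0 served as alternatives, with other scalings, filters, thresholds and samples. Ratios had 0.5 counts added, and distances 0.05 CPM. Exon lengths are unions over the GENCODE M21 annotation (GRCm38), and promoters are from RefSeq (GRCm38.p6). Figures were drawn in matplotlib 3.10.9 under Python 3.11.15.

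The members, gene lists and tests were chosen with earlier results of these data known. The rule for named genes was all 10 members, Ptpn1, up to 4 genes of each pathway list with the smallest adjusted p in AKI_PBS against sham among those called there or in AKI_PTPi_mEVs against AKI_PBS, and the 5 genes closest to each of Slc34a1, Slc20a1, Slc13a3 and Slc26a1. Of the listed names, 4 were not found (Nherf1, Nherf3, Nherf4 and Bpnt2) and 1 was an older name of another. The genes of these 4 were found in the same lists under their older names, Slc9a3r1, Pdzk1, Pdzd3 and Impad1.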

Additional observations from a re-analysis of the deposited data

How the results depend on the processing

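Over 510 refits of single members, 460 kept their direction and their side of the threshold, 12 lost a call, 8 gained one and 30 changed sign. The changes of sign were all in Slc4a4, Slc9a3 and Slc34a3 where they had not passed. The log2 fold change of Slc4a4 in AKI_PBS against sham was -0.0042 with relative log expression size factors, -0.0132 with DESeq2, -0.0162 with limma voom, -0.0337 without a low-count filter, -0.0165 with a stricter filter and -0.0202 with a replicate block. In AKI_PTPi_mEVs against AKI_PBS it was 0.0121 with DESeq2 and 0.0301 without a filter. Slc9a3 in AKI_PBS against sham was 0.0614 with library totals. With each library left out in turn, Slc4a4 ran from -0.11 to 0.14, from -0.18 to 0.10 and from -0.18 to 0.0725 in the 3 comparisons, Slc9a3 in AKI_PBS against sham from -0.29 to 0.15, and Slc34a3 in AKI_PTPi_mEVs against AKI_PBS from -0.49 to 0.60. Library totals in place of TMM factors moved the median of all genes by -0.11 in AKI_PTPi_mEVs against AKI_PBS and changed no call of a member.

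Asking for a log2 fold change of at least 1 gave 5227, 4570 and 987 genes in the 3 comparisons (AKI_PBS against sham, AKI_PTPi_mEVs against AKI_PBS, AKI_PTPi_mEVs against sham), and 5 and 1 members in the last 2 of these. In AKI_PTPi_mEVs against sham, 4 members were called without a low-count filter, and 4 with a replicate block, which added Slc34a1 (-0.60) and Slc34a3 (-1.23). With single libraries left out, 1 to 3 members and 878 to 3395 genes were called there. In the other comparisons 7 to 8 members were called each time. The exact p of the ratios with single libraries left out ran from 0.0036 to 0.0071 for Slc20a1 to Slc34a1, from 0.011 to 0.032 for Slc20a1 to Slc20a2, from 0.011 to 0.039 for Slc13a1 to Slc26a1, from 0.0036 to 0.093 for Slc13a2 to Slc13a3 and from 0.0036 to 0.10 for Slc9a3 to Slc4a4. The cause of these changes was not tested. Counts of 2 added in place of 0.5 changed no call of a ratio.

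Replicate numbers are shared by the groups in the labels, but the deviations of same-numbered libraries correlated at -0.19 to 0.11 over 9 pairs, and those of other pairs at -0.17 to 0.15. The numbers were therefore not taken as pairs. Beside the calls named above, the block changed none of the members' calls.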

Other observations

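Genes of ammonia production and of the factors that keep proximal tubule cells differentiated were also measured. Of 12 genes of ammonia production, 4 were higher and 4 lower in AKI_PBS against sham, where 55.7% of all genes were called. Glud1, glutamate dehydrogenase, rose by 1.04 ± 0.16 and stayed higher than sham in AKI_PTPi_mEVs (0.59 ± 0.16, edgeR adjusted p = 0.028). Slc38a3, the basolateral glutamine carrier, fell by 1.14 ± 0.21 on the log2 scale in AKI_PBS and was above sham in AKI_PTPi_mEVs (0.845 ± 0.20, edgeR adjusted p = 0.015). Slc7a7, a basolateral amino acid exchanger, was at -2.09 ± 0.25 in AKI_PBS against sham and at 2.38 ± 0.25 in AKI_PTPi_mEVs against AKI_PBS. Rhcg, an ammonia carrier of the collecting duct, was at -1.99 ± 0.16 and 1.58 ± 0.16.

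Of 16 transcription regulators, 3 were higher and 9 lower in AKI_PBS against sham, where 55.7% of all genes were called. In AKI_PTPi_mEVs against AKI_PBS, where 51.1% of all genes were called, 7 were higher and 4 lower. In AKI_PBS against sham Sox9, a factor of tubular repair, rose by 5.57 ± 0.43. Atf4, a factor of the integrated stress response, rose there by 2.09 ± 0.23. Esrra fell by 1.58 ± 0.17 and Ppargc1a by 1.03 ± 0.13 on the log2 scale, both regulators of mitochondrial genes. Hnf4a, a factor of proximal tubule identity, was chosen after its values were seen. It was at -1.14 ± 0.23 in AKI_PBS against sham and at 1.19 ± 0.23 in AKI_PTPi_mEVs against AKI_PBS, and at 0.05 ± 0.23 in AKI_PTPi_mEVs against sham, where it did not pass.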
